A study of Mus musculus with 753 samples.

Results

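The cells described here are Gata6 lineage-negative (lin-) keratinocytes from skin wounds 6 days after injury, set beside lin- keratinocytes from unwounded skin (day 0). They were chosen by the deposited annotation, as the lin- cells of the second batch, and number 93 cells at day 6 and 48 cells at day 0, together 141 of the 684 annotated cells of the series. All came from adult mice labelled as Gata6EFGPCreERT2 crossed with Rosa26-fl/STOP/fl-tdTomato, carrying 1 copy of Cre and 1 of the reporter, whose clipped back skin had received topical 4-hydroxytamoxifen a week before wounding. The drug marks cells that drive Cre from the Gata6 promoter, and their progeny, with tdTomato. A low dose was used, so lin- cells are all sorted epidermal cells without tdTomato and not proof of a lineage that never expressed Gata6. Day 6 cells came from full-thickness wounds of several pooled mice, and their labels name no replicate. Day 0 cells came from back skin distant from the wound, taken from mice that were used for the later wound times, so the controls were wounded animals too. Samples were mixed with epidermal cells of GFP mice as a buffer before sorting, and the GFP-positive cells were sorted out. Cells positive for CD45, a leukocyte marker, were left out by the same sort. Because no label separates replicates, each side was treated as 1 set of cells, and the comparison describes these 2 sets. Cells are not replicates, so no test was made, and intervals cover counting error only.

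Keratinocytes of the basal layer of the interfollicular epidermis sit on the basement membrane through integrins and hemidesmosomes, make Krt5 and Krt14, divide, and give rise to suprabasal cells that make Krt1 and Krt10. Hair follicles hold further stem cell pools in the bulge, the upper follicle and the sebaceous gland. After a wound, keratinocytes at its edge and in nearby follicles migrate over the gap, and Krt6a, Krt6b, Krt16 and Krt17 are textbook markers of that state. The question of the comparison is how epidermal cells without the Gata6 label differ between a 6-day wound and unwounded skin.

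Libraries were made cell by cell with Smart-seq2, a method that covers whole transcripts and cannot tell amplified copies from separate molecules. Levels are given as TPM, here the deposited RPKM of a gene divided by the cell's total and multiplied by 1000000, which is per length and comparable between genes. A cell is said to express a gene at 10 TPM or more. The day 6 cells held between 852 and 4917012 reads in genes (median 3315908), against 1383961 to 4590969 (median 2925802) in the day 0 cells. They differed more in evenness. At day 6, 22 of the 93 cells had fewer than 500 genes at 10 TPM, and at day 0 none of the 48 had. Of those 22 gene-poor cells, 12 had at least 1000000 reads, 20 carried the deposited identity of basal interfollicular epidermis, and all had Malat1 below 100 TPM. The other 71 gene-rich day 6 cells had a median of 1798 genes at 10 TPM, against 1189.5 in day 0 cells. Results are given for all 93 cells and, because the gene-poor cells decide several of them, for the 71 gene-rich cells; that split was made after the values were seen. The day 6 and day 0 libraries also carry different sequencing-run prefixes in their labels, so run and day cannot be told apart.

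**Figure D1:**
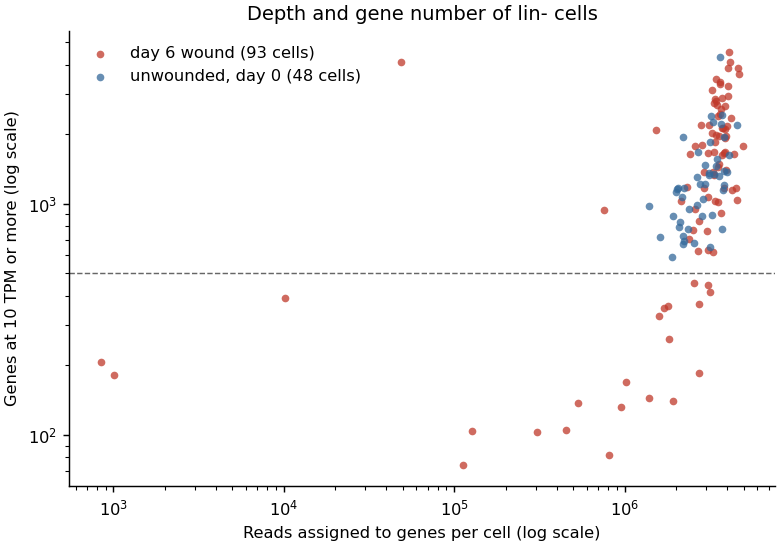
Reads assigned to genes (log scale) against the number of genes at 10 TPM or more (log scale) for each lin- cell, 93 from day 6 wounds and 48 from unwounded skin. The dashed line is at 500 genes; 22 day 6 cells and no unwounded cell lie under it.

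Malat1, a nuclear-retained long noncoding RNA (GRCm38.p6 chromosome 19, 5795690 to 5802672), was abundant and lower at day 6 than in day 0 cells. Its level had a median of 6053 TPM over the 71 gene-rich day 6 cells (0 to 38755 TPM), against 26426 TPM over the day 0 cells (2174 to 85064 TPM). Of the 71 cells, 10 were below 100 TPM, and of the 48 day 0 cells none were. The ribosomal precursor Rn45s had a median of 514.5 TPM in gene-rich day 6 cells and 158.3 TPM in day 0 cells, and a mean of 90349 TPM in the other unwounded set of the series, described below. Actb, cytoplasmic actin, had a median of 2650 TPM in gene-rich day 6 cells and 9931 TPM in day 0 cells. The direction was the same in lin+ cells, where the Malat1 median was 5205 TPM at day 6 and 22810 TPM at day 0. The part that RNA quality or the libraries play in the differences below was not tested.

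Over all genes with a mean of at least 10 TPM and reads in at least 10% of cells in 1 of the 2 sets, 6137 were compared. With a difference of log2(mean TPM + 1) of at least 2, that is 4-fold, 631 genes (10.3%) were higher at day 6 and 589 (9.6%) were lower, and the median difference over all compared genes was -0.23. In the 71 gene-rich cells 6565 genes passed the filter, of which 770 (11.7%) were higher and 425 (6.47%) were lower, with a median difference of 0.03. Of the calls made with all cells, 465 of the 631 higher genes and 393 of the 589 lower ones were also called in the gene-rich cells. A single cell held over 50% of a gene's sum in 203 of the 631 higher genes and in 247 of the 589 lower ones. A call therefore often rests on 1 cell, and shares of cells are given beside each mean.

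The size of this difference has to be read against that between unwounded sets. The first batch of the series holds another set of 47 lin- cells from unwounded skin (unwounded set 1), deposited as raw counts and converted here to TPM, while the 48 cells are unwounded set 2. Set 2 differed from set 1 by 4-fold or more at 1631 higher genes (28.2%) and 789 lower genes (13.6%) of 5792, which is a larger share than day 6 differed from set 2. Batch, library and mouse cannot be told apart between the 2 sets. Malat1 had a median of 1092 TPM in the 43 gene-rich cells of set 1, below its day 6 median. Against set 1, the day 6 cells were 4-fold higher at 1400 genes (23.1%) and lower at 653 (10.8%) of 6059, with a median of 0.49. Genes below are therefore given against set 2, with a share, mean or difference for set 1 beside most of them. Differences against set 1 were computed over all 93 day 6 cells and all 47 set 1 cells. Both sets were scaled to the genes that could be converted. Genes with no recovered length, or with no reads in any cell of set 1, were left out and are called not measured there. Absence of expression and absence from the measurement cannot be told apart for genes without reads. Shares and means of single genes in set 1 also cover all 47 cells. Of these, 4 had fewer than 500 genes at 10 TPM. Counts of genes with a larger share than in set 1 use its 43 gene-rich cells.

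The 15 genes with the largest increase at day 6 over all cells, taken by the naming rule, rested mostly on the gene-poor cells. In 13 of the 15 they held over 50% of the day 6 sum, and 5 of the 15 were still called in gene-rich cells. Wdr59, a component of the nutrient-sensing GATOR2 complex, averaged 371 TPM over the 93 day 6 cells and 0.0623 TPM over day 0 cells, but 98.3% of the day 6 sum lay in gene-poor cells. Cd274, which encodes the immune checkpoint ligand PD-L1, averaged 263 TPM at day 6 and 0.0162 TPM at day 0, and 93.7% of its day 6 sum lay in those cells. For Osr1, a transcription factor, that share was 99.7%. The 2 shallowest day 6 cells, with 1014 and 852 reads, had 12 and 11 of the 15 genes above 1000 TPM. The 15 genes with the largest decrease (among them Kdm6b, Alkbh5, Srsf2, Sik1 and Rbm15) were all called in the gene-rich cells as well.

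The same ranking was applied to the gene-rich cells with shares at 10 TPM, after the values were seen. The rule takes genes whose mean and share both differ, and 67 genes met it in the higher direction and 12 in the lower. Among the first 15, Fkbp1a, a peptidyl-prolyl isomerase that binds FK506, was expressed by 49.3% of the 71 cells (95% interval 37.2% to 61.4%) and 10.4% of the day 0 cells (3.47% to 22.7%), with 14.9% in set 1. Its mean was 298 TPM in gene-rich day 6 cells and 29.2 TPM in day 0 cells, a log2 difference of 3.31, with the highest cell at 3741 TPM at day 6 and 572 TPM at day 0. In either set more cells lay below 10 TPM than at or above it, and the sets overlapped. Etfdh, which passes electrons from fatty acid oxidation to ubiquinone, was expressed by 42.3% of gene-rich day 6 cells and 6.25% of day 0 cells, with 8.51% in set 1. Its log2 difference was 3.93 in gene-rich cells and 2.80 for all day 6 cells against set 1.

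The rest of the 15 genes stood at various distances from the first unwounded set. Cct6a, a subunit of the chaperonin that folds actin and tubulin, was expressed by 32.4% of gene-rich day 6 cells and 4.17% of day 0 cells, and by 14.9% of set 1. Tpm2, a tropomyosin, had 26.8% of cells at day 6 and none of 48 at day 0, which allows a share of up to 6.25% (3 cells), and set 1 had 6.38%. Dmac1, an assembly factor of respiratory complex I, had 26.8% against 2.08%, with 4.26% in set 1, and its log2 difference was 3.43 in gene-rich cells and 3.41 for all day 6 cells against set 1. Urod, an enzyme of heme synthesis, was expressed by 22.5% of gene-rich day 6 cells and by none of the 48 day 0 cells, but by 19.1% of set 1. Its mean was 78.1 TPM over all day 6 cells and 0 over day 0 cells, while set 1 had 369 TPM, so its direction turned round with the reference. Arntl (BMAL1), the clock transcription factor, was expressed by 22.5% of gene-rich day 6 cells and 2.08% of day 0 cells, and by 8.51% of set 1. Of the 15, all were called over all 93 cells and within basal interfollicular cells. Those comparisons share cells with the one that chose the genes, so their agreement is not separate support. Of the 14 measured in set 1, 5 were called against it (Tmem159, Etfdh, Dmac1, Fkbp1a and Arntl).

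**Figure D2:**
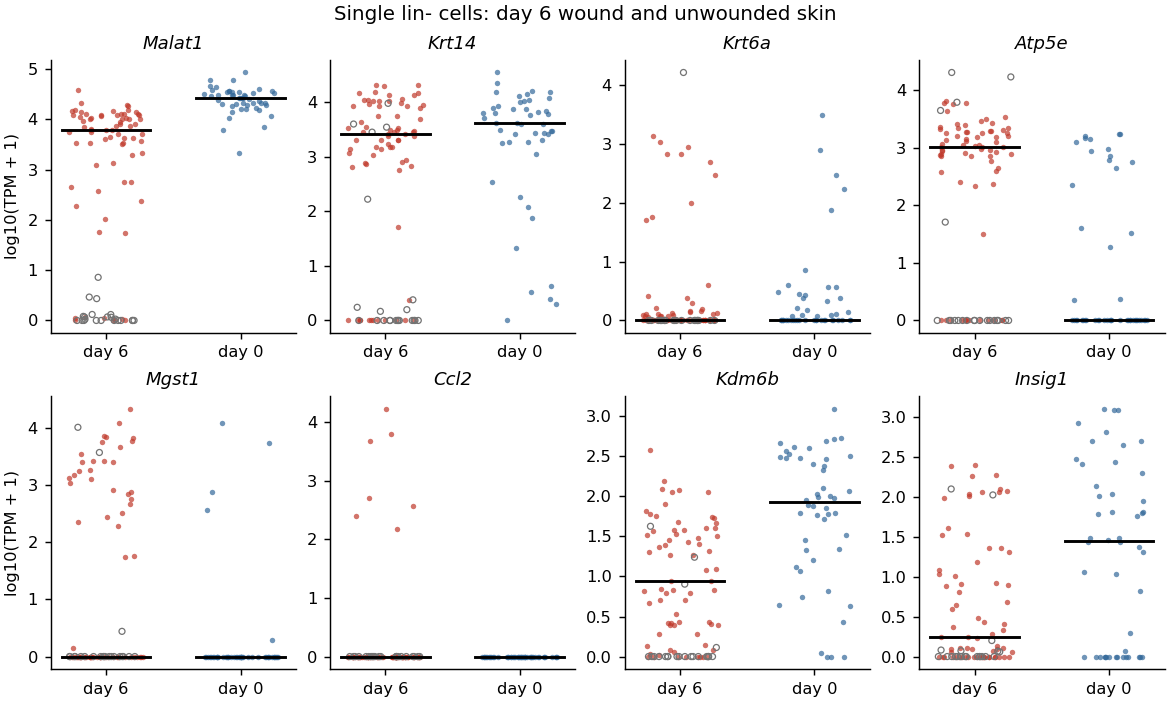
Levels of 8 genes in single lin- cells, as log10(TPM + 1), with day 6 left (93 cells) and day 0 right (48 cells). Open grey circles are the 22 gene-poor day 6 cells, and black lines are medians of the other cells; Malat1 and Kdm6b lie lower at day 6, Atp5e lies higher, and the 7 day 6 cells with Ccl2 have no counterpart at day 0.

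The keratins of the basal layer and of wounds that passed the filter did not reach 4-fold. Krt14 averaged 4829 TPM over gene-rich day 6 cells (3901 TPM over all 93) and 6145 TPM over day 0 cells, and was expressed by 81.7% and 89.6% of these cells. Its median was 2566 TPM in gene-rich day 6 cells (highest cell 21103 TPM) and 4084 TPM in day 0 cells (highest cell 35051 TPM), so the sets overlapped. In set 1 Krt14 averaged 15683 TPM, and the log2 difference was -1.92. Krt5 averaged 2783 TPM in gene-rich day 6 cells and 4354 TPM in day 0 cells. Krt15, a basal keratin most abundant in the bulge, averaged 11260 TPM in gene-rich day 6 cells and 12289 TPM in day 0 cells. Krt6a (GRCm38.p6 chromosome 15, 101689928 to 101694305) was expressed by 14.1% of gene-rich day 6 cells and 10.4% of day 0 cells, while 29.8% of set 1 expressed it. Its mean over all 93 cells, 238 TPM, stood above the 93.3 TPM of day 0 cells, but in gene-rich cells it was 80.2 TPM, so the sign of its difference turned from 1.34 to -0.22 on the log2 scale without the gene-poor cells. Krt16 was expressed by 16.9% of gene-rich day 6 cells and 29.2% of day 0 cells, with 55.3% in set 1. Krt17 averaged 1015 TPM in gene-rich day 6 cells and 2435 TPM in day 0 cells, with 43.7% and 39.6% of cells and 78.7% in set 1. The summed level of the wound keratins had a median of 177 TPM in gene-rich day 6 cells and 236 TPM in day 0 cells, against 3815 TPM at day 9 and 2742 TPM at day 11.

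Most adhesion genes had lower means at day 6, with few past 4-fold. Of 15 genes of integrins, epidermal laminins and hemidesmosomes that passed the filter, 3 were 4-fold lower and none higher over all cells, beside 9.6% and 10.3% of all compared genes, and their median difference was -1.25, beside -0.23 for all genes. In gene-rich cells the counts were 2 lower and 1 higher of 16, beside 6.47% and 11.7% of all genes. The median there was -0.92, beside 0.03 for all genes. Against set 1 none of 14 was 4-fold lower and 2 were higher, beside 10.8% and 23.1% of all genes. The median against set 1 was -0.46, beside 0.49 for all genes. Itga6, the integrin used in the sort and a partner of Itgb4 in hemidesmosomes, averaged 47.1 TPM in gene-rich day 6 cells and 146 TPM in day 0 cells, but was expressed by 31.0% and 27.1% of cells, and set 1 averaged 43.3 TPM. Col17a1, the hemidesmosomal collagen, averaged 335 TPM over all day 6 cells and 809 TPM over day 0 cells, and was expressed by 80.3% of gene-rich day 6 cells and 83.3% of day 0 cells, with 61.7% in set 1. Itgb1, the shared subunit of collagen and laminin receptors, was expressed by 49.3% of gene-rich day 6 cells and 29.2% of day 0 cells although its mean was 101 TPM and 147 TPM, and by 23.4% of set 1. Itgb6, an epithelial integrin subunit that activates TGF-beta, was expressed by 8.45% and 12.5%, and Itga5, a subunit of the fibronectin receptor, by 2.82% and 4.17%.

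The deposited identities, assigned by the authors, had overlapping intervals in both sets. The shares of 2 deposited clusters lay further apart, but their intervals in gene-rich day 6 cells and day 0 cells also overlapped. At day 6, 57 of 93 cells (61.3%, 50.6% to 71.2%) were basal interfollicular cells (IFE-B), against 31 of 48 day 0 cells (64.6%, 49.5% to 77.8%). Outer bulge cells (OB) made up 23.7% at day 6 and 22.9% at day 0, and sebaceous gland cells 6.45% and 4.17%. Without the gene-poor cells IFE-B cells were 37 of 71 (52.1%, 39.9% to 64.1%). Of the authors' expression clusters, cluster 4 held 19.7% of gene-rich day 6 cells (11.2% to 30.9%) and 15.1% of all 93, against 41.7% of day 0 cells (27.6% to 56.8%), with 29.8% in set 1. Cluster 0 held 21.1% of gene-rich day 6 cells (12.3% to 32.4%) and 16.1% of all 93, against 4.17% of day 0 cells (0.509% to 14.2%), with 8.51% in set 1. Of the 22 gene-poor cells, 20 were in cluster 2. The sorted cells carried epidermal markers on both sides. At least 100 TPM of summed basal markers (Krt5, Krt14, Itga6, Itgb4 and Col17a1) were read in 77 of 93 day 6 cells, 66 of 71 gene-rich day 6 cells and 45 of 48 day 0 cells. Leukocyte markers reached that sum in 1 cell a side, with Tyrobp, Fcer1g and Trdc at 0 in every cell, and endothelial markers in none. The sort had left out CD45-positive cells, so the leukocyte counts do not describe the skin. Melanocyte markers reached it in 6 day 6 cells and 1 day 0 cell. One day 6 cell with the IFE-B identity held 43870 TPM of melanocyte markers and no Krt5, Krt14 or Krt15.

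Markers of the sebaceous gland were read in more cells at day 6 than at day 0, as were 81.6% of all genes in gene-rich cells. The summed level of Mgst1, Scd1 and Pparg reached 100 TPM in 35 of 71 gene-rich day 6 cells (49.3%) and 37 of all 93 (39.8%), against 6 of 48 day 0 cells (12.5%), and was not computed in set 1. Mgst1, a microsomal glutathione transferase enriched in sebaceous cells (GRCm38.p6 chromosome 6, 138140527 to 138156755), was expressed by 42.3% of gene-rich day 6 cells (30.6% to 54.6%) and 8.33% of day 0 cells (2.32% to 20.0%), with 17.0% in set 1. Its mean was 1183 TPM over all day 6 cells and 386 TPM over day 0 cells, and without the single highest cell of each set 1069 TPM in gene-rich day 6 cells and 136 TPM in day 0 cells. Scd1, a fatty acid desaturase, was expressed by 32.4% and 14.6%, with 10.6% in set 1, at means of 149 TPM in gene-rich day 6 cells and 159 TPM in day 0 cells. Krt79, a keratin found where the gland joins the upper follicle, was expressed by 19.7% of gene-rich day 6 cells and 6.25% of day 0 cells, with 12.8% in set 1, and Defb6, a beta-defensin of the upper follicle, by 16.9% and 6.25%, with 8.51% in set 1. Of 9 upper follicle and sebaceous duct genes compared over all cells none was 4-fold higher or lower. Their median difference was -0.37, beside -0.23 for all genes, of which 10.3% were called higher and 9.6% lower. Against set 1 none of 8 was higher and 1 was lower, with a median of -1.03 beside 0.49 for all genes. In gene-rich cells 2 of 9 were higher than at day 0 and none lower, beside 11.7% and 6.47% of all genes. The median there was -0.07, beside 0.03. Within gene-rich IFE-B cells 7 of 9 were higher and 1 lower, beside 17.2% and 8.25% of all genes. The median there was 4.66, beside 0.16. Gata6 itself reached 10 TPM in 1 of 93 day 6 cells and in none of the 48 day 0 cells. Lgr5, a bulge stem cell marker, was expressed by 8.45% of gene-rich day 6 cells and 10.4% of day 0 cells, and Lrig1, a marker of the junctional zone, by 7.04% and 4.17%. The suprabasal keratins Krt1 (7.04% and 6.25%) and Krt10 (32.4% and 18.8%) marked a minority on either side.

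Nuclear-encoded subunits of the respiratory chain were found in more cells at day 6. Of the 79 subunits that passed the filter, 78 had a larger share of expressing cells in gene-rich day 6 cells than in day 0 cells, and 54 (68.4%) by at least 20 percentage points. Beside that, 81.6% of all 6565 genes had a larger share at day 6 and 12.0% by at least 20 points. Against set 1, 76 of the 76 subunits measured had a larger share at day 6, and so had 5501 of 6290 genes (87.5%). In mean level 5 subunits were 4-fold higher and none lower, in all cells and in gene-rich cells alike, with a median difference of 0.55 over all cells and 0.58 in gene-rich cells. Of all genes 10.3% and 11.7% were called higher, so the count of called subunits was below the share of all genes. The summed level of the list had a median of 40940 TPM in gene-rich day 6 cells (17220 to 121600 TPM) and 26400 TPM in day 0 cells (2705 to 73540 TPM), so the sets overlapped. In lin+ cells the medians were 46800 TPM at day 6 and 31100 TPM at day 0.

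Atp5e, the epsilon subunit of ATP synthase (GRCm38.p6 chromosome 2, 174461075 to 174464101), was expressed by 81.7% of gene-rich day 6 cells (70.7% to 89.9%) and 33.3% of day 0 cells (20.4% to 48.4%), with 59.6% in set 1. Its median was 1048 TPM in gene-rich day 6 cells (highest cell 6625 TPM) and 0 in day 0 cells (highest cell 1770 TPM), and its log2 difference 2.49 over all cells but -0.03 against set 1. Atp5mpl, a small membrane subunit of the same enzyme, was expressed by 66.2% and 14.6%, with 25.5% in set 1, and its log2 difference was 2.74 over all cells and 2.54 against set 1. Ndufa2, a subunit of complex I, was expressed by 77.5% and 35.4%, with 51.1% in set 1. Atp5g2, which encodes subunit c of ATP synthase, was expressed by 59.2% and 8.33%, while 44.7% of set 1 expressed it. Cox8a, a subunit of cytochrome c oxidase, was expressed by 74.6% and 50.0%, with 55.3% in set 1. Of these 4-fold calls in the mean, that of Atp5mpl was also made against set 1, those of Atp5e and Ndufa2 were not, and Atp5g2 was 4-fold lower than in set 1 (log2 difference -2.68).

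Cytosolic ribosomal proteins gave different counts with the 2 unwounded sets. In gene-rich day 6 cells 79 of 84 had a larger share of expressing cells than in day 0 cells, but 33 of 83 had a larger share than in the gene-rich cells of set 1, beside 81.6% and 87.5% of all genes. All 20 measured genes of glycolysis and hypoxia had a larger share at day 6 than at day 0, and 19 of 20 a larger share than in set 1, beside 81.6% and 87.5% of all genes, with 1 gene 4-fold higher and 1 lower in gene-rich cells.

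**Figure D3:**
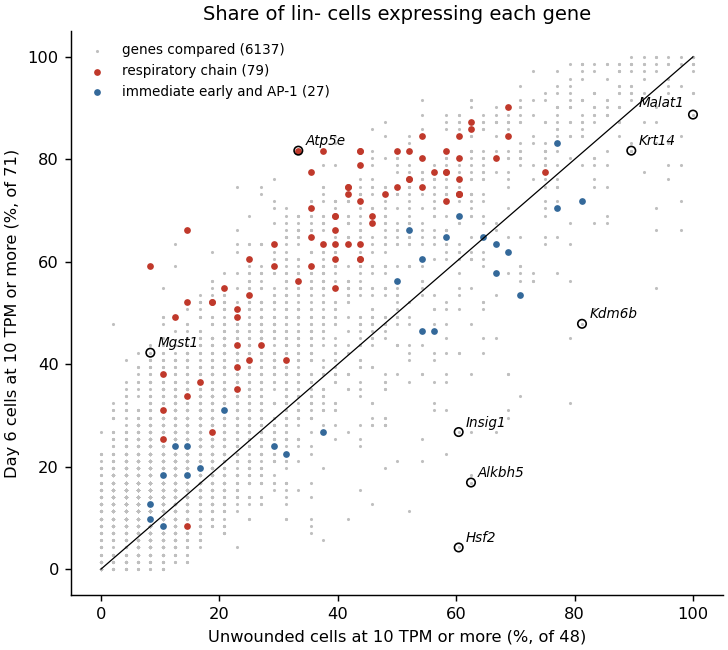
Percentage of cells at 10 TPM or more for each of 6137 compared genes, in unwounded cells (horizontal axis, of 48) and in gene-rich day 6 cells (vertical axis, of 71). Grey points are all genes, red points the 79 respiratory chain subunits, blue points the 27 immediate early and AP-1 genes, and circled points the named genes; all red points but 1 lie above the line of equal shares.

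Some DNA replication genes passed 4-fold against day 0, and none against set 1 in that direction. Of 17 genes of S phase and replication in gene-rich cells, 6 were 4-fold higher and none lower, and all 17 had a larger share of expressing cells than at day 0 (16 of 17 against set 1), beside 11.7% of all genes called higher and 81.6% and 87.5% with a larger share. Over all cells 3 of 16 were higher, with a median of 1.51. A gene was compared if it passed the filter in either set. Genes read in few day 0 cells could thus enter through the day 6 side, where they are high. Against set 1 none of 20 was 4-fold higher and 2 were lower, with a median of -0.30 beside 0.49 for all genes. Cells with at least 5 of the 28 listed replication genes at 10 TPM numbered 17 of 71 gene-rich day 6 cells (23.9%, 14.6% to 35.5%) and 3 of 48 day 0 cells (6.25%, 1.31% to 17.2%), but 9 of 43 in set 1 (20.9%), 19 of 44 at day 9 and 19 of 46 at day 11. Pcna, the sliding clamp of DNA polymerases, was expressed by 35.2% of gene-rich day 6 cells and 14.6% of day 0 cells, with 21.3% in set 1. Its mean was 135 TPM over all day 6 cells and 28.5 TPM over day 0 cells, a log2 difference of 2.21 in gene-rich cells, and 0.52 over all day 6 cells with set 1 as reference. Slbp, which binds the stem-loop of histone mRNAs, was expressed by 42.3% and 12.5%, with 4.26% in set 1. Mcm6, a subunit of the replicative helicase, was expressed by 16.9% and 4.17%, with 6.38% in set 1.

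Replication-dependent histone genes had the largest median difference of the lists described. Of 26 that passed the filter, 16 were 4-fold higher and 2 lower over all cells, with a median of 2.26. In gene-rich cells 20 of 31 were higher and 2 lower. Of all genes 10.3% were called higher over all cells and 11.7% in gene-rich cells. The histone genes have near-identical copies that share reads, so the count overstates the number of separate genes. These symbols were not measured in set 1. H2ac24 was expressed by 28.2% of gene-rich day 6 cells and 6.25% of day 0 cells, at means of 1282 TPM and 169 TPM. Mitosis genes were less clear. In gene-rich cells 1 of 17 was 4-fold higher and none lower, beside 11.7% of all genes called higher. All 17 had a larger share of expressing cells than day 0, but 9 of 17 a larger share than set 1. Over all cells 10 mitosis genes passed the filter, with the same day 0 cells. Some of the 17, as of the 31 histone genes, thus entered only through the gene-rich day 6 cells. Their larger shares are partly set by that filter. Of all genes 81.6% had a larger share than day 0 and 87.5% a larger share than set 1. Top2a, a topoisomerase of dividing cells, was expressed by 21.1% of gene-rich day 6 cells and 4.17% of day 0 cells, with 17.0% in set 1.

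Lists of secreted factors held few higher genes, beside 10.3% of all genes called higher and 9.6% lower, with a median of -0.23. Over all cells 1 of 4 chemokines was 4-fold higher, 1 of 14 matrix genes was higher and 3 lower (median -1.26), none of 8 interleukin 1 family and cytokine genes was higher and 2 were lower (median -1.08), and none of 9 EGF receptor ligands and ERK feedback genes was higher and 3 were lower (median -1.53). Against set 1 the list medians were 0.08 for matrix genes, 0.59 for cytokine genes and 1.15 for EGF and ERK genes. The median for all genes against set 1 was 0.49. Single genes are given as examples of these lists and of the named genes. Ccl2, a chemokine that attracts monocytes (GRCm38.p6 chromosome 11, 82035577 to 82037452), was expressed by 7 of 93 day 6 cells, all gene-rich (7 of 71, 9.86%, 4.06% to 19.3%), and by none of the 48 day 0 cells, which allows up to 6.25%, and none of set 1. The highest day 6 cell held 16869 TPM, and the mean over gene-rich cells was 409 TPM with it and 174 TPM without it. In lin+ cells Ccl2 was expressed by 20.3% at day 6 and 17.4% at day 0. Whether the lineages differ was not tested. Postn, a matricellular protein made by bulge cells, averaged 786 TPM over all day 6 cells and 344 TPM over day 0 cells, and was expressed by 45.1% of gene-rich day 6 cells and 20.8% of day 0 cells, with 14.9% in set 1. Cxcl14, a chemokine made constitutively by keratinocytes, averaged 1969 TPM over all day 6 cells and 788 TPM over day 0 cells, but was expressed by 59.2% of gene-rich day 6 cells and 64.6% of day 0 cells, with 25.5% in set 1. Cxcl12, the ligand of Cxcr4, was expressed by 23.9% of gene-rich day 6 cells and 4.17% of day 0 cells, with 6.38% in set 1. S100a4, a calcium-binding protein of migrating cells, was expressed by 14.1% of gene-rich day 6 cells and 2.08% of day 0 cells. It had no reads in set 1 and was treated as not measured there. Serpinb2, a plasminogen activator inhibitor, was expressed by 28.2% and 47.9%, with 31.9% in set 1.

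In gene-rich cells 45 of 6565 genes (0.686%) had a share of expressing cells lower by at least 20 points at day 6, and the rule names lower genes from among those. Kdm6b, an H3K27 demethylase (GRCm38.p6 chromosome 11, 69398508 to 69420367), averaged 29.2 TPM over gene-rich day 6 cells and 175 TPM over day 0 cells, 5.82-fold lower on the scale of mean TPM + 1, and was expressed by 47.9% (35.9% to 60.1%) and 81.2% (67.4% to 91.0%) of them. Its median was 7.75 TPM in gene-rich day 6 cells (highest cell 379 TPM) and 83.7 TPM in day 0 cells (highest cell 1251 TPM). In set 1 it averaged 26.5 TPM with 17.0% of cells, and the log2 difference of all day 6 cells against that set was -0.10. Alkbh5, an RNA m6A demethylase, was expressed by 16.9% of gene-rich day 6 cells and 62.5% of day 0 cells, but by 8.51% of set 1. Hsf2, a heat shock transcription factor, was expressed by 4.23% of gene-rich day 6 cells and 60.4% of day 0 cells, and by 8.51% of set 1. Gata3, a transcription factor of epidermal barrier and follicle, averaged 224 TPM in gene-rich day 6 cells and 775 TPM in day 0 cells, and 132 TPM in set 1, so its difference over all cells was -2.16 against day 0 and 0.47 against set 1. Of the 12 lower genes named by the rule in gene-rich cells, 12 were called over all cells and 11 within IFE-B cells, which share cells with the choice. Only Sik1 was called against set 1.

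Sik1, a salt-inducible kinase whose gene is itself switched on by cAMP signals, averaged 8.94 TPM over all day 6 cells and 66.7 TPM over day 0 cells, and 156 TPM in set 1. It was expressed by 21.1% of gene-rich day 6 cells and 54.2% of day 0 cells, with 44.7% in set 1, which made it lower against both. Nr4a1, an orphan nuclear receptor and immediate early gene, averaged 295 TPM over all day 6 cells and 1309 TPM over day 0 cells, and 708 TPM in set 1. Of the 27 immediate early and AP-1 genes compared, none was 4-fold higher and 1 lower over all cells, with a median of -0.79. In gene-rich cells 1 was higher and none lower, with a median of -0.51. Of all genes 10.3% were higher and 9.6% lower over all cells, with a median of -0.23. In gene-rich cells these were 11.7% and 6.47%, with a median of 0.03. The summed level of the immediate early and AP-1 genes had a median of 7660 TPM in gene-rich day 6 cells and 14530 TPM in day 0 cells. Junb averaged 749 TPM in gene-rich day 6 cells and 1309 TPM in day 0 cells, while Fos averaged 2851 TPM and 3159 TPM. In set 1 Junb averaged 1294 TPM and Fos 3266 TPM. Myc, the growth-promoting transcription factor, was expressed by 57.7% of gene-rich day 6 cells and 27.1% of day 0 cells, with 23.4% in set 1, yet its mean was 258 TPM and 455 TPM, so the share and the mean differed in opposite directions (highest cell 1409 TPM at day 6 and 4389 TPM at day 0). Spry2, a feedback inhibitor of ERK signalling, averaged 31.4 TPM in gene-rich day 6 cells and 237 TPM in day 0 cells, with 43.7% and 43.8% of cells, and 6.38% in set 1.

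Most genes of cholesterol and fatty acid synthesis had lower means at day 6 than in day 0 cells of set 2. Of 20 genes of cholesterol and fatty acid synthesis compared over all cells, 6 were 4-fold lower and 1 higher, beside 9.6% and 10.3% of all genes, with a median of -1.01. In gene-rich cells 2 of 22 were lower and 1 higher, with a median of -0.63, so 4 of the 6 calls were not made in these cells. Beside that, 6.47% of all genes were lower and 11.7% higher, with a median of 0.03. Against set 1, 3 of 22 were lower and none higher, beside 10.8% and 23.1% of all genes. The median against set 1 was -0.002, beside 0.49 for all genes. Insig1, the sterol sensor that holds SREBP in the endoplasmic reticulum (GRCm38.p6 chromosome 5, 28071412 to 28078662), averaged 26.7 TPM in gene-rich day 6 cells and 178 TPM in day 0 cells, and was expressed by 26.8% (16.9% to 38.6%) and 60.4% (45.3% to 74.2%), with 14.9% in set 1. Hmgcs1, an enzyme of the mevalonate pathway, averaged 218 TPM in gene-rich day 6 cells and 708 TPM in day 0 cells, and 127 TPM in set 1. The shares of Insig1 and Hmgcs1 in set 1 lay below those of gene-rich day 6 cells.

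**Figure D4:**
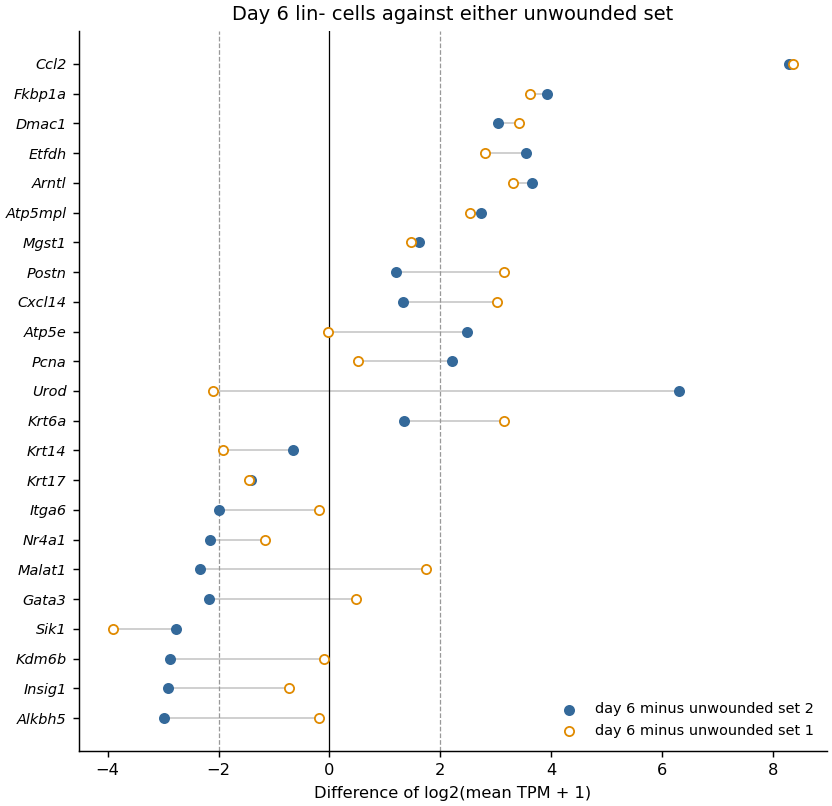
Difference of log2(mean TPM + 1) of 23 named genes, all 93 day 6 cells minus the unwounded cells of the same batch (filled, set 2) and minus those of the first batch (open, set 1). Dashed lines mark 4-fold; Ccl2, Fkbp1a, Dmac1, Etfdh, Arntl and Atp5mpl lie beyond 4-fold with both references and Sik1 below it with both, whereas Kdm6b, Insig1 and Alkbh5 lie near 0 with set 1.

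Within IFE-B cells, that is at one deposited identity, more genes passed 4-fold. With all 57 day 6 and 31 day 0 IFE-B cells, 764 genes (12.7%) of 6016 were higher and 863 (14.3%) lower. With the 37 gene-rich day 6 IFE-B cells, 1166 genes (17.2%) of 6785 were higher and 560 (8.25%) lower. Between 20 gene-rich day 6 and 11 day 0 OB cells, 2299 genes (43%) of 5346 were higher and 664 (12.4%) lower. These sets hold fewer cells than the full sets, and the part that cell number plays in the counts was not tested. Of the 770 genes higher in gene-rich cells of any identity, 529 were also called within IFE-B cells, and of the 425 lower, 263. The IFE-B cells are part of those cells, so the overlap is not separate support. Mgst1 had a log2 difference of 3.98 within gene-rich IFE-B cells, beside 1.81 over all gene-rich cells, while Krt14 had -0.18 and Kdm6b -2.64. Krt6a had 3.54 within IFE-B cells, beside -0.22 over all gene-rich cells.

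The later wound times of the same batch showed which day 6 values were found again. Atp5e was expressed by 90.9% of day 9 cells and 82.6% of day 11 cells, Etfdh by 40.9% and 43.5%, and Mgst1 by 43.2% and 45.7%, close to the 81.7%, 42.3% and 42.3% of gene-rich day 6 cells. Other genes did not stay at the day 6 value. Kdm6b was expressed by 95.5% and 93.5% of day 9 and day 11 cells, Alkbh5 by 77.3% and 73.9%, Insig1 by 63.6% and 52.2% and Gata3 by 72.7% and 80.4%. For Kdm6b, Alkbh5 and Gata3 these shares were above those of day 0 cells too. Over all genes the median share was 27.3% at day 9 and 26.1% at day 11. It was 18.3% in gene-rich day 6 cells and 12.5% in day 0 cells, so shares were larger at the later times for genes in general. Krt17 was expressed by 81.8% of day 9 cells and 78.3% of day 11 cells, against 43.7% at day 6. Postn, at 25.0% and 23.9%, was below its 45.1% at day 6. These sets are 1 mouse set each.

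In lin+ cells of the same days, 368 genes (6.08%) of 6052 were 4-fold higher at day 6 and 477 (7.88%) lower, and in gene-rich lin+ cells 521 (8.09%) and 397 (6.16%) of 6441. Kdm6b and Alkbh5 were lower there too, Kdm6b being expressed by 40.5% of gene-rich lin+ cells at day 6 and 82.6% at day 0, and Alkbh5 by 15.2% and 67.4%. Insig1 was expressed by 21.5% of gene-rich lin+ cells at day 6 and 47.8% at day 0. Hsf2 was expressed by 15.2% and 23.9%, a smaller gap than in lin- cells, and Fkbp1a by 54.4% and 50.0%. Atp5e was expressed by 75.9% and 60.9% and Mgst1 by 60.8% and 32.6%. Whether any of these lineage differences exceeds the spread between mice was not tested.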

How the data were processed

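Single lin- keratinocytes were profiled by Smart-seq2 on an Illumina sequencer. The authors trimmed reads with Trimmomatic (0.27), aligned them with STAR (2.2) to GRCm38 and counted them per gene (mm10) with featureCounts, then used Seurat (3.2.2 in the submitters' processing notes) for identities. The table of 25001 genes was deposited by the authors with RPKM in the second batch and raw counts in the first. RPKM was scaled to a sum of 1000000 per cell (TPM). The deposited counts of unwounded set 1 became TPM through gene lengths recovered from 241 cells held in both units, for 19212 genes. Recovered reads were whole within 0.02 for 99.99% of values under 200 reads, and were used for depth and thinning. No gene of the mitochondrial genome is in the table. Deposited identities and clusters are the authors'; 1054 columns of other tables or samples were not used.

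The difference was log2(mean TPM + 1) at day 6 minus day 0, called at 2, for genes with a mean of at least 10 TPM and reads in at least 10% of cells of 1 set. Means over cells weight each cell equally. With 1 set a side there was no test; shares have exact Clopper-Pearson 95% intervals, which cover counting error only. Reads without molecular identifiers are not independent molecules. The named genes were up to 15 called genes at each end with a mean of at least 50 TPM and shares of cells with reads at least 20 percentage points apart, members of lists, and genes the paper names. The members and lists were chosen with earlier results of these data known. The split at 500 genes, the share at 10 TPM and the ranking within gene-rich cells were chosen after seeing the data. Alternatives were another pseudocount, no filter, a stricter filter, median-of-ratios scaling, no ribosomal RNA, IFE-B cells alone, leaving out the highest cell, means of log2 values, cells with 1000 genes, thinning to 1000000 reads and unwounded set 1. Python 3.11.15, numpy 2.4.6, pandas 2.3.3 and scipy 1.17.1 were used, and the steps were tested on simulated data. Doublets were not called. Gene positions are from RefSeq, GRCm38.p6. Some named genes are not reported here.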

Additional observations from a re-analysis of the deposited data

Results flagged for a closer look

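In its mean over all cells, Arntl was 4-fold higher at day 6 in lin- cells and 4-fold lower in lin+ cells. Its mean was 38.6 TPM over the 93 day 6 lin- cells and 2.14 TPM over the 48 day 0 lin- cells, a log2 difference of 3.66, and 29.0 TPM over day 6 lin+ cells and 125 TPM over day 0 lin+ cells, a log2 difference of -2.07. The difference between the lineages was not tested, since each has 1 set a side. It was expressed at 10 TPM or more by 22.5% of gene-rich day 6 and 2.08% of day 0 lin- cells. In lin+ cells it was expressed by 11.4% of gene-rich day 6 and 8.70% of day 0 cells. In lin+ cells the mean and the share thus differed in opposite directions, and the day 0 mean rested on a small share of cells.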

How the results depend on the processing

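The count of genes higher at day 6 by 4-fold was 631, and that of genes lower at day 6 was 589. These counts were 241 and 183 with a pseudocount of 10 TPM, 2252 and 1458 without a filter, 258 and 286 with a mean of at least 50 TPM, and 69 and 106 with means of log2 values. Without the highest cell of each set 1016 genes were higher, and against unwounded set 1 1400 were. Median-of-ratios scaling gave 748 and 430, and it kept both counts within 1.5 times. Within IFE-B cells, leaving out the gene-poor cells gave 1166 higher and 560 lower, in place of 764 and 863. In set 1, uHF-II and IFE-DII cells made up 0.0%, in place of 2.08% each in the 48 day 0 cells.

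The differences of 73 genes (those of the rule and those the paper names) were recomputed 799 times. In 682 of these a called gene stayed called in its direction or an uncalled one stayed uncalled, in 68 a called gene fell below 4-fold, and in 22 a called gene changed sign. A gene counted as called there when past 4-fold, even if it failed the filter, as Krt6b did. Signs of uncalled genes such as Krt6a and of further list members such as Atp5e and Atp5g2 are not counted there. Krt6b was 2.19 over all cells, and -0.50 in IFE-B cells, -0.12 as a mean of log2 values, -0.0433 in cells with 1000 genes, -0.85 against set 1 and -0.0163 in gene-rich cells. Among those called genes, the differences against set 1 turned round for Gata3 (0.47), Urod (-2.10), Ttc5 (1.10), Srsf2 (2.13), Nectin2 (0.88), Rbm15 (0.54), Zscan26 (2.49), Zfc3h1 (1.42), Zfp207 (1.01), Cib2 (-1.03), Mcee (-0.39), Znrf3 (1.88) and Tinagl1 (3.50). In cells with 1000 genes and in gene-rich cells they turned round for Tedc1 (-0.82 and -0.84) and Pacs2 (-1.46 and -1.47). The median of the fibroblast markers was 0.22 without a filter, which tested more genes, in place of -3.48. Apart from the changes of cells, scale and filter by construction, the cause was not tested.

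No paired analysis was possible because each side is 1 set of cells with no replicate numbers, and with 1 set there was no replicate to leave out. The number of cells limits what can be said of rare genes, since none of 48 cells allows a share of up to 6.25%.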
